A study of Mus musculus with 10 samples.

Results

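The genes described here are 8 long noncoding RNAs of the nucleus and hosts of small nucleolar RNAs (snoRNAs), Malat1, Neat1, Gas5, Snhg1, Snhg3, Snhg6, Snhg8 and Snhg12. They were chosen by symbol, as rows of the count table that bear the name and hold counts, and all 8 were found among 35976 rows, 26290 of them with counts. The list of names itself was drawn up with results of these libraries in view, so the tests below are no independent support for it. RNA came from mouse morulae, the compacting embryo before the blastocyst, of the strain combination BDF1 x PWK, in 10 libraries. The single-embryo set held 3 wild-type embryos (replicates 1 to 3) and 3 Jarid2 knockout embryos (replicates 1, 3 and 4), all female and 1 embryo a library. The pooled set held 2 control and 2 Jarid2 knockout libraries of about 20 embryos each, with no sex given. Jarid2 encodes a cofactor of the Polycomb complex PRC2, which places a repressive methyl mark on histone H3. The sources used here do not give how the allele was made, which exons it lacks or what genotype the pool controls carry.

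Malat1 and Neat1 are neighbouring genes that make abundant RNAs kept in the nucleus. Malat1 RNA gathers in nuclear speckles, where splicing factors are stored, and Neat1 RNA builds paraspeckles, bodies that hold RNA-binding proteins such as Nono and Sfpq. The mature end of Malat1 and of the long Neat1 form is a triple helix and not a poly(A) tail, while the libraries were made from polyadenylated RNA. The other 6 genes are transcripts whose introns carry snoRNAs, guides that direct chemical changes and cleavage of ribosomal RNA. Once the snoRNAs are cut out, the spliced host RNA is in many cases exported, engaged by ribosomes and removed by nonsense-mediated decay. Gas5 is the host known for rising in growth-arrested cells. The table has separate rows for some snoRNAs, and the values below are those of the host rows.

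The annotation places 25 snoRNAs on the sense strand inside the 6 hosts: 9 in Gas5, 8 in Snhg1, 4 in Snhg12, 2 in Snhg3 and 1 each in Snhg6 and Snhg8. By their letters 17 belong to the box C/D class, which guides ribose methylation, and 5 to the box H/ACA class, which mostly guides pseudouridylation. The search took TGATG in the first 22 bases and CTGA in the last 15 of a sequence of at most 100 bases as boxes C and D, and ACA at 3 bases from the 3′ end, with a tolerance of 1 base, as box ACA. The remaining 3, Gm25894, Snord22 and Snora44, held neither pair at those places. One snoRNA of each host is shown, from the GENCODE M21 transcripts of GRCm38, with the boxes in capitals, because these are what tells the hosts apart. Gm22680 has no snoRNA name in that annotation. Snord80 lies in Gas5 (chr1:161037601-161037681, plus strand), Gm22680 in Snhg1 (chr19:8725341-8725409, plus), Snora73b in Snhg3 (chr4:132352322-132352526, minus), Snord87 in Snhg6 (chr1:9942463-9942549, minus), Snora24 in Snhg8 (chr3:123507937-123508066, minus) and Snord99 in Snhg12 (chr4:132310691-132310764, plus).
Snord80: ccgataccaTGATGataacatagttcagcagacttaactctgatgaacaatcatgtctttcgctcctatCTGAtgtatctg
Gm22680: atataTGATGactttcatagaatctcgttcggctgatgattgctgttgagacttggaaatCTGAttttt
Snora73b: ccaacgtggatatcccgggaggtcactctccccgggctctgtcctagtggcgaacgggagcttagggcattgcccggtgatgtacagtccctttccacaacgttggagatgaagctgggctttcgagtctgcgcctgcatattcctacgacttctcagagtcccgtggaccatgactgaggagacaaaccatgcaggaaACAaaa
Snord87: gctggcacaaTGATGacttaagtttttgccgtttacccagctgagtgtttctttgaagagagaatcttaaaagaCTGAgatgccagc
Snora24: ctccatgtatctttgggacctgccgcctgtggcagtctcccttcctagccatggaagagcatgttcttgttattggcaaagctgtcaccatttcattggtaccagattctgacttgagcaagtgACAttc
Snord99: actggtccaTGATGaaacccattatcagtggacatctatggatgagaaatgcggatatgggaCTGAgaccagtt
All 5 annotated transcripts of Snhg6 hold Snord87 in an intron, as do all 5 of Snhg3 for Snora73b, while 16 of 25 do in Gas5 for Snord80. The other snoRNA of Snhg3, Snora73a, is also 205 bases long and equals Snora73b at 198 positions (96.6%). These are copies of the U17 snoRNA, which acts in cleavage of the ribosomal RNA precursor.

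Starts of the genes are shown because many snoRNA hosts and ribosomal protein genes share a start in a run of pyrimidines. RefSeq promoters for GRCm38.p6, 250 bases before to 50 after a start, were at hand for 6 of the 8 genes, with a pair of starts for Gas5, and the genes without an entry are Neat1 and Snhg6. Printed are the 40 bases before and the 30 from the start on, for Malat1 (chr19:5802643-5802712, minus strand), the downstream start of Gas5 (chr1:161035126-161035195, plus), Snhg1 (chr19:8723447-8723516, plus), Snhg8 (chr3:123508307-123508376, minus) and Snhg12 (chr4:132308638-132308707, plus). Capitals mark TATA at 40 to 21 bases before the start, a motif that reads the same on both strands, and a start tract, a C as first transcribed base followed by only C or T up to at least the fifth base, on the sense strand.
Malat1: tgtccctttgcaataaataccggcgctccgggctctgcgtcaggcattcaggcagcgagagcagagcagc
Gas5: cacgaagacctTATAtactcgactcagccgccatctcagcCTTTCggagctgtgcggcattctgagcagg
Snhg1: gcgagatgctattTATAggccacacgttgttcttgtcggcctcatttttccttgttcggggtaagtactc
Snhg8: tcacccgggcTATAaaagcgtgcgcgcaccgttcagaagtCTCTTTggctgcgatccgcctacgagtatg
Snhg12: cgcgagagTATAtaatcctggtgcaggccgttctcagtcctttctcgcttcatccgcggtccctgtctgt
TATA was found in 4 of the 7 member windows, against 1755 of 32851 promoters in the table (5.34%). It was in 7 of 76 of ribosomal protein genes (9.21%), 1 of 15 of other noncoding snoRNA hosts (6.67%) and 1 of 26 of coding hosts (3.85%). The start tract was found in 2 of 7, Gas5 and Snhg8, against 823 of all promoters (2.51%), 14 of 76 of ribosomal protein genes (18.4%), 1 of 15 of other noncoding snoRNA hosts (6.67%) and 1 of 26 of coding hosts (3.85%). The rule reads only the annotated start base, so it misses a tract where that start is some bases off. These shares are therefore exact matches only, and a window without a match may still belong to a gene with such a start. In Snhg12 the annotated start is a T within a pyrimidine run, and in Snhg1 the run ends after 3 bases. A match of letters is a description and shows no bound factor.

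Libraries of single embryos held 14830332 to 18696312 counts and pools 41003216 to 49861963. Jarid2 itself was lower in the knockouts, at 156.1, 318.7 and 61.3 CPM (a gene's counts per 1000000 counts of the library) in knockout single embryos 1, 3 and 4, against 580.3 to 775.6 CPM in wild types. In the pools it had 180.6 and 157.9 CPM in knockouts against 442.5 and 496.3 CPM in controls. Its log2 change was -1.92 in single embryos (SE 0.43, edgeR adjusted p = 0.0342). In pools it was -1.55 (SE 0.18, edgeR adjusted p = 0.0792), which did not pass 5%. The 13 morula markers, of which Dppa5a was the most abundant (up to 4128.6 CPM), summed to 5261.8 to 7115.6 CPM in every library. Among them Cdh1, the adhesion gene of compaction, fell from 608.4 ± 203.7 to 160.4 ± 76.1 CPM in single embryos (SD, n = 3, log2 change -1.91, edgeR adjusted p = 0.018), the only call in that list. Cdh1 did not fall in pools, with 163.8 ± 36.5 CPM in controls and 198.6 ± 92.3 CPM in knockouts (SD, n = 2). Its log2 change there was 0.18 (edgeR adjusted p = 0.945). The control pools thus lay near the knockout single embryos in Cdh1. Of 12 cumulus and granulosa markers 4 (Fshr, Inhba, Inha, Has2) were at 0 everywhere, with sums of 41.7 to 55.1 CPM in wild-type and 34.9 to 44.8 CPM in knockout single embryos, mostly Amhr2. Blood markers summed to at most 8.38 CPM, with 4 of 7 at 0 everywhere. The 7 fibroblast markers summed to 12.3 to 141.7 CPM in wild-type and 9.27 to 56.1 CPM in knockout single embryos, mostly Pdgfra, a gene of primitive endoderm as well, with Dcn and Lum at 0. Oocyte and 2-cell markers, mostly Zp3, summed to 48.5 to 165.8 and 36.9 to 99.5 CPM there. In control and knockout pools the sums were 25.9 to 28.2 and 24.3 to 24.6 CPM for cumulus, 13.6 to 15.7 and at most 14.4 CPM for fibroblast, and 64.8 to 81.8 and 78.0 to 79.9 CPM for oocyte and 2-cell markers. The part of these differences, Cdh1 included, in the results below was not tested. In whole embryos, fewer cells of a kind and less RNA per cell cannot be told apart.

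Malat1 (chromosome 19, 5795690 to 5802672, minus strand) was the gene with the most counts in all 3 wild-type single embryos. It took 1.16%, 1.31% and 1.28% of their counts, and 0.563%, 1.01% and 0.662% in knockout embryos 1, 3 and 4. The wild types had 11585.6, 13093.5 and 12833.2 CPM of it, and the knockouts, in that order, 5627.8, 10103.0 and 6623.6 CPM. Every knockout lay below every wild type (15.3% of genes did so, and 12.6% the reverse), and knockout embryo 3 lay much nearer to the wild types than the other knockouts did. The wild-type mean was 12504.1 ± 806.0 CPM and the knockout mean 7451.5 ± 2349.7 CPM (SD, n = 3). Malat1 fell by 0.72 on the log2 scale (SE 0.17, adjusted p = 0.0392, edgeR quasi-likelihood test with Benjamini-Hochberg adjustment). Malat1 was the only 1 of the 8 genes to pass the 5% threshold in single embryos. By the same rule 4.37% of all 13830 genes tested passed, 3.21% as lower and 1.16% as higher. At an unadjusted p under 0.05 there were 2 of the 8, Malat1 and Gas5, against 22.6% of genes. With upper quartile scaling the 724 calls divided into 301 higher and 423 lower, against 161 and 444 by the main scaling.

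The Malat1 call was close to its threshold. It was lost with DESeq2 size factors (-0.68, adjusted p = 0.0514) or upper quartile scaling (-0.66, 0.0553), and without wild-type embryo 1 (adjusted p = 0.109), 2 (0.0721) or 3 (0.132) or knockout embryo 1 (0.139) or 4 (0.176). Over all alternatives the change ran from -0.93 to -0.59 and the adjusted p from 0.00988 to 0.358.

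In pools the Malat1 groups were not apart. The controls had 5146.3 and 6575.9 CPM and the knockouts 5355.7 and 8165.4 CPM. They overlapped, with the second library of each genotype above its first. The log2 change was 0.11 (SE 0.19, n = 2, edgeR adjusted p = 0.955). The knockout effects of the sets differed by 0.80 (SE 0.29) on the log2 scale, with an unadjusted p of 0.0175 and an edgeR adjusted p of 0.257, so a difference between the sets was not shown. By that test 0.0063% of genes passed, 1 of 15878, and 0 of the 8. At an unadjusted p under 0.05 there were 2 of the 8 (Malat1 and Gas5) against 14.6% of genes, and DESeq2 called 11.3% of 4795.

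**Figure D1:**
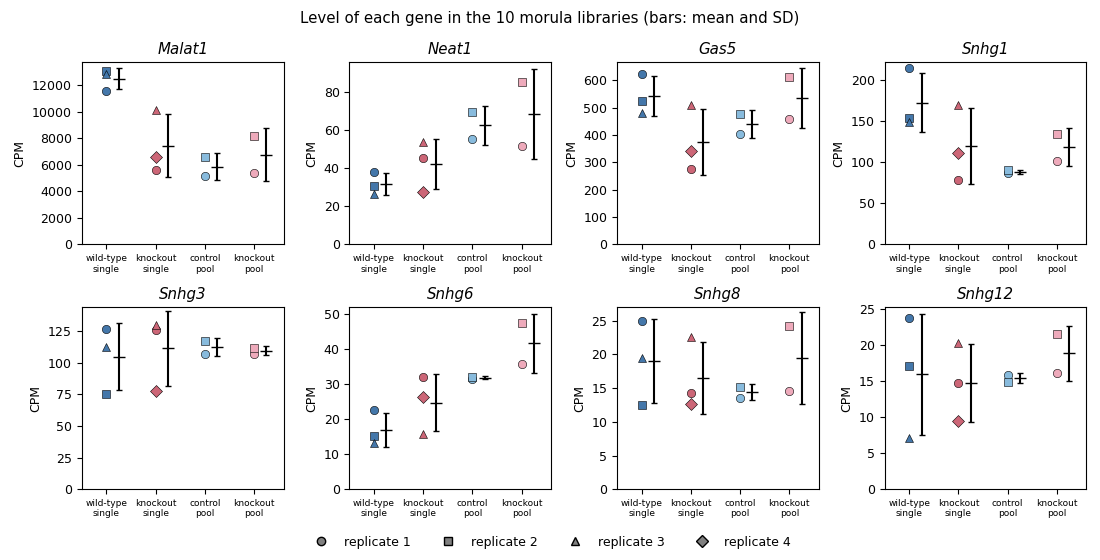
CPM (vertical axis, linear, from 0) of each of the 8 genes in the 10 libraries, by group (horizontal axis); points are libraries, with a symbol for each replicate number, and the bars beside them give mean and SD. Malat1 in the 3 wild-type single embryos, at 11585.6 to 13093.5 CPM, lies above all other libraries, while Neat1 is higher in the control pools than in the wild-type single embryos.

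Neat1 (chromosome 19, 5824708 to 5845480, minus strand), next to Malat1, did not pass the test in either set. It had 38.0, 30.7 and 26.6 CPM in wild-type and 45.2, 53.7 and 27.6 CPM in knockout single embryos. Knockout embryos 1 and 3 lay above all wild types and embryo 4 within them. The log2 change was 0.45 (SE 0.30, edgeR adjusted p = 0.422). In pools it had 55.2 and 69.6 CPM in controls and 51.6 and 85.2 CPM in knockouts, where the controls lie between the knockouts (0.03, SE 0.22, edgeR adjusted p = 0.994). As deviations from the mean of their set, log2(CPM + 1) of Neat1 and Malat1 had a Pearson correlation of 0.02 over the 10 libraries.

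Gas5 and Snhg1, the hosts with the most annotated snoRNAs, did not pass the test, and unlike Malat1 their groups overlapped in single embryos. Gas5 (chromosome 1, 161034601 to 161038539, plus strand) stood at 621.8, 522.6 and 480.5 CPM in the wild types, against 275.3, 507.9 and 341.4 CPM in knockout embryos 1, 3 and 4. Knockout embryo 3 lay within the wild types and the other knockouts below them. Gas5 had a log2 change of -0.50 (SE 0.21, unadjusted p = 0.0338, edgeR adjusted p = 0.179), which passed without knockout embryo 3 (-0.71, adjusted p = 0.0457).

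Snhg1 (chromosome 19, 8723487 to 8726326, plus strand) stood at 215.0, 154.6 and 149.3 CPM in the wild types, against 78.5, 170.2 and 111.3 CPM in the knockouts. The order of the knockouts was that of Malat1 and Gas5, embryo 1 lowest and embryo 3 highest, and embryo 3 again lay among the wild types. The log2 change was -0.50 (SE 0.26, edgeR adjusted p = 0.281). Knockout embryo 1 was at 45.4% of the wild-type mean for Snhg1, 50.8% for Gas5 and 45.0% for Malat1. Knockout embryo 3 was at 98.4%, 93.8% and 80.8%. Embryo 3 also had the most Jarid2 RNA of the knockouts, and the least was in embryo 4, which lay above embryo 1 in all 3 genes. A link between these levels and Jarid2 was not tested.

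In pools Gas5 had 403.7 and 476.9 CPM in controls and 456.8 and 613.4 CPM in knockouts, with overlap (0.19, SE 0.18, edgeR adjusted p = 0.9). Snhg1 had 86.5 and 90.3 CPM in controls and 102.3 and 134.8 CPM in knockouts, both knockouts above both controls (0.33, SE 0.17, edgeR adjusted p = 0.795). The sets' effects differed by 0.66 (SE 0.30, edgeR adjusted p = 0.337) for Gas5 and by 0.80 (SE 0.37, edgeR adjusted p = 0.342) for Snhg1, past the threshold in neither. The deviations of Gas5 and Snhg1 correlated at 0.98, and those of Malat1 with them at 0.92 and 0.83. These are descriptions over 10 libraries, and the genes share each library and its scaling.

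Snhg6 (chromosome 1, 9942025 to 9944118, minus strand) did not pass the test in single embryos. It stood at 22.6, 15.2 and 13.2 CPM in the wild types, against 32.0, 15.9 and 26.4 CPM in knockout embryos 1, 3 and 4. Knockout embryos 1 and 4, lowest for Malat1, lay above all wild types here, and embryo 3 lay among them. The log2 change was 0.62 (SE 0.39, edgeR adjusted p = 0.38), and the deviations of Snhg6 and Malat1 correlated at -0.60. In pools Snhg6 had 31.6 and 32.2 CPM in controls and 35.7 and 47.6 CPM in knockouts, without overlap (0.29, SE 0.18, edgeR adjusted p = 0.845).

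Snhg3, Snhg8 and Snhg12 did not separate the genotypes of single embryos. Snhg3 (chromosome 4, 132351933 to 132353686, minus strand) stood at 126.1, 75.4 and 112.5 CPM in the wild types, against 125.8, 130.0 and 77.4 CPM in the knockouts. In both genotypes 1 embryo stood below the others, wild-type replicate 2 and knockout replicate 4. The log2 change was 0.13 (SE 0.27, edgeR adjusted p = 0.834). Its pools were the most even of all 8 genes by the spread in knockouts, with 107.1 and 117.0 CPM in controls and 106.6 and 111.7 CPM in knockouts (-0.12, SE 0.16, edgeR adjusted p = 0.93).

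Snhg8 (chromosome 3, 123507552 to 123508336, minus strand) had 24.9, 12.5 and 19.5 CPM in wild-type and 14.2, 22.6 and 12.7 CPM in knockout single embryos. The ranges lay almost on top of each other (-0.18, SE 0.38, edgeR adjusted p = 0.83). Snhg8 had 13.5 and 15.2 CPM in control pools and 14.6 and 24.2 CPM in knockout pools (0.33, SE 0.24, edgeR adjusted p = 0.864). Snhg12 (chromosome 4, 132308678 to 132311024, plus strand) had 23.8, 17.1 and 7.1 CPM in wild-type and 14.8, 20.3 and 9.5 CPM in knockout single embryos. All 3 knockouts lay inside the wild-type range, which was the widest of the 8 genes (3.34-fold from lowest to highest). The log2 change of Snhg12 was -0.07 (SE 0.47, edgeR adjusted p = 0.956) in single embryos. In pools it was 0.20 (SE 0.21, edgeR adjusted p = 0.907), from 15.9 and 14.9 CPM in controls and 16.2 and 21.6 CPM in knockouts.

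**Figure D2:**
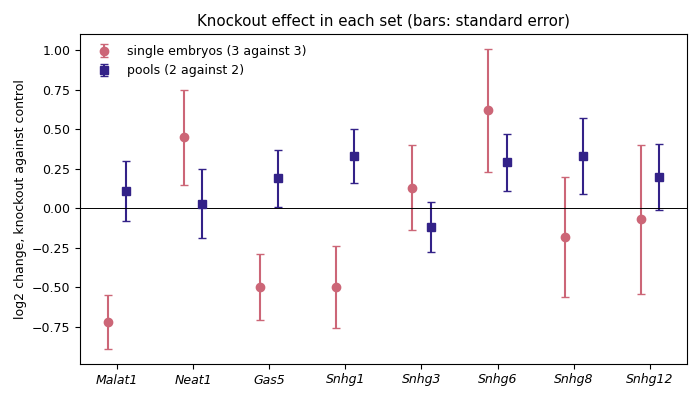
Log2 change from control to knockout (vertical axis) of each gene in single embryos (circles) and pools (squares), with standard errors as bars. Malat1 in single embryos (-0.72) is the only value past the 5% threshold, and 5 genes (Malat1, Gas5, Snhg1, Snhg8, Snhg12) lie below 0 in single embryos and above 0 in pools. The share of all genes with such opposite signs was not counted. With a library left out, signs changed for Snhg8 (to 0.05) and Snhg12 (to 0.33) in single embryos and for Malat1 (to -0.15) in pools.

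Over the 8 genes, the median log2 change was -0.12 in single embryos, where that of all genes was -0.03, and 3 of 8 lay above 0. In pools the median was 0.19 against 0.01 for all genes, and 7 of 8 lay above 0. All 8 genes passed the filter on low counts in both sets. In single embryos the groups did not overlap in 1 of 8 (Malat1), against 27.9% of all genes tested. In pools they did not overlap in 3 of 8 (Snhg1, Snhg6, Snhg12), all higher in knockouts, against 35.4% of 16259 genes in either direction, 24.3% higher and 11.1% lower. Both counts use CPM from library totals, without further scaling. For Snhg12 the gap was 15.9 CPM in control pool 1 against 16.2 CPM in knockout pool 1. The main scaling divides these by 0.950 and 0.988, so with it the Snhg12 groups overlap. The share in single embryos is below the background and that in pools rests on 3 genes. In pools 0 genes passed by edgeR (0%), of all genes and of the 8, with 1073 genes (6.6%) and 0 of the 8 at an unadjusted p under 0.05, while DESeq2 called 71 genes (0.555%) and 0 of the 8. The edgeR test of the pools did not call Jarid2 itself (-1.55, unadjusted p = 4.87e-06, adjusted p = 0.0792). A missing call in pools therefore does not show that a gene is unchanged. By CPM from library totals, knockout pool 2 lay above both controls in 7 of the 8 genes, and knockout pool 1 in 3. The share of all genes that did so in each pool was not counted. Without scaling 63.1% of all genes had a log2 change above 0 in pools, against 51.3% with the main scaling.

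**Figure D3:**
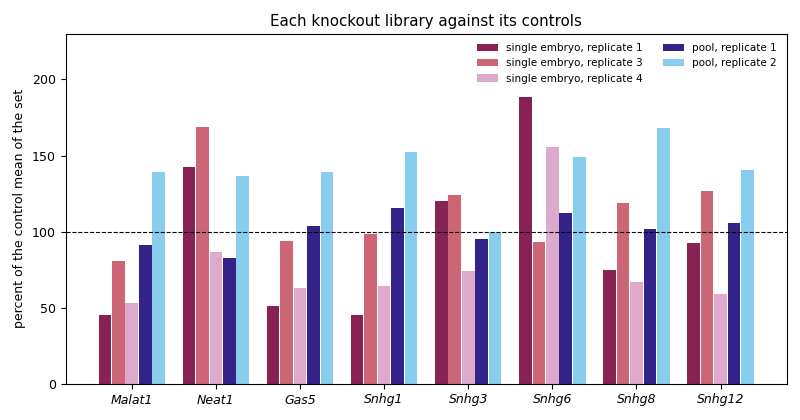
Each of the 5 knockout libraries as a percent of the control mean of its set (vertical axis, from 0, dashed line at 100) for the 8 genes. Single embryos 1 and 4 are at 45.0% and 53.0% for Malat1 and at 188.2% and 155.5% for Snhg6, and pool 2 is at or above 136.6% in every gene but Snhg3. Percents are of CPM from library totals, without further scaling.

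Levels of the control libraries also differed between the sets, which differ in embryos per library, in known sex and in depth, so that these cannot be told apart. The comparisons here use CPM from library totals, without further scaling. Malat1 had 2.13 times the mean CPM in wild-type single embryos that it had in control pools, Snhg1 1.96 times and Gas5 1.23 times, without overlap. For Gas5 the gap was narrow, 480.5 CPM in wild-type embryo 3 against 476.9 CPM in control pool 2. The main scaling of the joint fit divides these by 1.01 and 0.938, so with it the Gas5 groups overlap. Neat1 and Snhg6 were without overlap in the other direction, with 1.96 and 1.87 times the CPM in control pools. Snhg3, Snhg8 and Snhg12 overlapped. Such separation in unscaled CPM held for 5 of the 8 genes, against 47.4% of 15876 genes, 28.9% with single embryos higher and 18.4% with single embryos lower. Whether the share of the 8 differs from that of all genes was not tested. Between knockout single embryos and knockout pools the groups did not overlap in 1 of 8, Snhg6, against 27.4% of genes.

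Per kilobase of annotated exon, with all exons of a gene merged, mean levels over the 10 libraries were 1218.8 CPM for Malat1, 125.0 for Gas5, 110.5 for Snhg3 and 43.5 for Snhg1. Snhg6 had 23.8, Snhg8 20.4, Snhg12 6.70 and Neat1 2.33 CPM per kilobase. Gas5 (99.7 to 144.1 over the group means) and Snhg3 (106.2 to 113.6) overlapped. Snhg6 (14.8 to 36.3) overlapped with both Snhg1 (29.8 to 58.3) and Snhg8 (16.8 to 22.7). Neat1 is last because its long form spans 20771 bases. By median transcript length it had 24.0 CPM per kilobase, above Snhg12 with 17.6, and the other ranks were the same. Which form of Neat1 the counts came from is not known.

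Where exons overlap on 1 strand, reads from both genes cannot be told apart, and for opposite strands no source used here gives the strand setting of the counting. Snhg3 shares 135 exonic bases with Rcc1, a gene on the same strand, at 60.6 ± 4.7 CPM in wild-type and 61.5 ± 1.9 CPM in knockout single embryos (SD, n = 3). Snhg6 shares 127 bases with the opposite-strand gene Mcmdc2, at 1.0 ± 0.7 CPM in wild-type and 0.2 ± 0.2 CPM in knockout single embryos (SD, n = 3). The opposite-strand gene Zbtb37 overlaps the annotated span of Gas5 by 428 bases, with no exonic base shared. The annotation also has Gm17300 opposite Snhg3, with 705 exonic bases shared, and Gm37376 opposite Malat1, with 453, both not analysed here. The values of Snhg3 in particular are uncertain through these overlaps.

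Snhg1 lies between Slc3a2, which encodes the heavy chain of amino acid transporters, and Wdr74, a gene of ribosome assembly. In single embryos Slc3a2 fell by 1.05 on the log2 scale (SE 0.21, edgeR adjusted p = 0.0267), from 328.5 to 152.2 CPM, without passing in pools (-0.27, edgeR adjusted p = 0.834). It had 171.7 CPM in control and 150.7 CPM in knockout pools, both near the knockout single embryos. Wdr74 had 0.87 (SE 0.24, edgeR adjusted p = 0.0645), from 130.5 to 229.6 CPM, and -0.20 in pools (SE 0.22, edgeR adjusted p = 0.913).

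Of 15 other noncoding snoRNA hosts tested in single embryos 0 passed (edgeR, 2 at an unadjusted p under 0.05), with a median of -0.21, and 0 of 15 passed in pools, with a median of 0.11 (1 at an unadjusted p under 0.05). All genes had such an unadjusted p in 22.6% of cases in single embryos and 6.6% in pools. Snhg14, the host that lies in the Prader-Willi region, went from 70.0 to 30.6 CPM in the means of single embryos (-1.16, SE 0.34, edgeR adjusted p = 0.0783). Snhg11 had -0.72 (SE 0.28, edgeR adjusted p = 0.152). In pools Snhg9 had 0.61 (SE 0.20, edgeR adjusted p = 0.63) and Snhg14 had 0.40 (SE 0.21, edgeR adjusted p = 0.795).

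Of 15 other nuclear or long noncoding RNAs tested in single embryos, 0 passed (edgeR, 4 at an unadjusted p under 0.05), 1 lay above 0 and the median was -0.38. In pools 0 of 18 passed (2 at an unadjusted p under 0.05), 15 lay above 0 and the median was 0.32. All genes lay above 0 in 48.3% and 51.3% of cases, and had an unadjusted p under 0.05 in 22.6% and 6.6% (edgeR). The imprinted RNA Meg3 had -2.18 (SE 0.58, edgeR adjusted p = 0.0589) in single embryos and 0.45 (SE 0.33, 0.864) in pools. Xist, the RNA that silences an X chromosome, had -0.98 (SE 0.27, edgeR adjusted p = 0.0676) and 0.79 (SE 0.24, 0.584). Its means were 553.9 CPM in wild-type and 276.7 CPM in knockout single embryos, all female. Pools, with no sex given, had 96.1 CPM in controls and 178.7 CPM in knockouts. For Xist in pools, sex and genotype cannot be told apart. Kcnq1ot1, an imprinted antisense RNA, had -0.80 (SE 0.31, edgeR adjusted p = 0.155) and 0.63 (SE 0.20, 0.614).

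Coding snoRNA hosts are mostly genes of ribosomal proteins and translation factors. Of 34 tested in single embryos, 4 rose and 0 fell (of all genes 1.16% rose and 3.21% fell), with a median of 0.35, and 19 of 34 had an unadjusted p under 0.05 (22.6% of all genes). By the rule for naming genes these are Eif4a1, a helicase of translation initiation (359.4 to 856.6 CPM, log2 1.33, SE 0.27, edgeR adjusted p = 0.0268), and Rpl13 (0.69, SE 0.16, 0.0376). Named after their values were seen, the others are Hspa8 (1.02, SE 0.24, edgeR adjusted p = 0.0408) and Rpl5 (0.66, SE 0.16, 0.0418). In pools 0 of 34 passed by edgeR (0 at an unadjusted p under 0.05; median 0.04), with Eif4a1 at -0.42 (SE 0.19, edgeR adjusted p = 0.753). Eif4a1 had 888.5 CPM in control and 700.2 CPM in knockout pools, both nearer to the knockout than to the wild-type single embryos. The difference between coding and noncoding hosts was not tested.

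Of 12 tested genes of the box C/D particle and its assembly, 12 lay above 0 in single embryos (median 0.53), 7 had an unadjusted p under 0.05 and 1 rose, Ruvbl2, an ATPase of particle assembly (325.9 to 638.5 CPM, 1.04, SE 0.26, edgeR adjusted p = 0.0477). Among all genes 48.3% lay above 0, 22.6% had such an unadjusted p and 1.16% rose. Znhit6, another assembly factor, had 0.88 (SE 0.25, edgeR adjusted p = 0.067). Of 6 box H/ACA genes 4 lay above 0 and 0 passed (edgeR, 1 at an unadjusted p under 0.05; median 0.20), with Nhp2 at 0.59 (SE 0.18, edgeR adjusted p = 0.0897). In pools the medians were -0.04 and 0.11, with 0 past the test by edgeR and 0 at an unadjusted p under 0.05 in both lists.

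Among 21 paraspeckle proteins 1 rose in single embryos, the cold-inducible RNA-binding protein gene Rbm3 (40.9 to 81.5 CPM, 1.04, SE 0.23, edgeR adjusted p = 0.0328), and Hnrnpa1 had 0.86 (SE 0.25, edgeR adjusted p = 0.0727). The median was 0.30, and 6 of 21 had an unadjusted p under 0.05. Among 22 nuclear speckle and SR splicing factors 1 fell, the scaffold gene of speckles Srrm2 (403.7 to 218.9 CPM, -0.85, SE 0.19, edgeR adjusted p = 0.0359), and Rnps1 had 0.87 (SE 0.29, edgeR adjusted p = 0.109). The median was 0.06, and 6 of 22 had an unadjusted p under 0.05. For all genes that share was 22.6%, while 1.16% rose and 3.21% fell past the test. In pools the medians of both lists were 0.02 and -0.09, and 0 genes passed by edgeR or had an unadjusted p under 0.05.

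Of 16 nonsense-mediated decay factors 1 rose in single embryos, Eif4a3, a core protein of exon junctions (355.4 to 656.1 CPM, 0.95, SE 0.23, edgeR adjusted p = 0.0421). The kinase gene Smg1 had -0.87 (SE 0.22, edgeR adjusted p = 0.0515), the median was -0.05, and 6 of 16 had an unadjusted p under 0.05. Such a p was found in 22.6% of all genes, and 1.16% of all genes rose past the test. Of 19 genes that process or stabilise Malat1 and Neat1, such as RNase P subunits, 0 passed by edgeR (4 at an unadjusted p under 0.05; median 0.35), with Rpp38 at 1.02 (SE 0.28, edgeR adjusted p = 0.0628) and Rpp30 at 0.85 (SE 0.23, 0.0633). In pools the medians were 0.05 and -0.05, with 0 past the test by edgeR and 0 at an unadjusted p under 0.05. Over all genes the number of calls, 605 with all 6 embryos, was 41, 519 and 1 without wild-type embryo 1, 2 or 3. It was 66, 1316 and 1 without knockout embryo 1, 3 or 4.

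**Figure D4:**
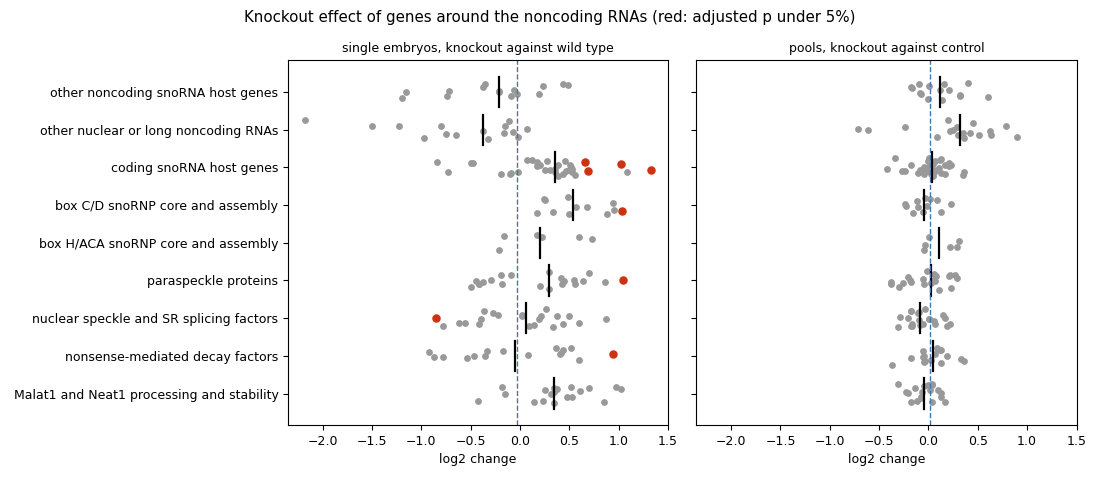
Log2 change from control to knockout (horizontal axis) of every tested gene of the 9 lists (rows) in single embryos (left) and pools (right); red points passed 5%, black bars are list medians and the dashed line is the median of all genes. Box C/D genes lie above 0 in 12 of 12 cases and the other noncoding RNAs in 1 of 15 in single embryos, against 48.3% of all genes.

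The genes most like each of the 8 were sought among 7673 genes with a mean of at least 10 CPM, by Pearson correlation of log2(CPM + 1) over the 10 libraries as deviations from the mean of the set. Nearest to Malat1 were Pogz and Slc35e4 (both 0.99), and nearest to Gas5 were Zfp106 and Ubtf (both 0.99). Nearest to Snhg1 were Rab12 and LOC108167626 (both 0.98), to Neat1 Tead4 (0.95), and to Snhg3 Grb2 (0.97) and Snhg20 (0.94). Snhg6 was nearest to Deb1 and Acadl (both 0.96), Snhg8 to LOC108167440 and BC021767 (both 0.96), and Snhg12 to Sik3 and Mre11a (both 0.95). These are descriptions over 10 libraries that share their depth and scaling with the genes compared.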

How the data were processed

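Polyadenylated RNA of 10 mouse morula libraries was measured with SMART-Seq v4 complementary DNA, Nextera XT libraries and single-end reads of 75 bases, per the labels' protocols. The deposited table holds whole-number read counts per gene, not normalized by the authors. Tools named in the submitters' processing notes are RSEM 1.3.1, STAR 2.7.6a and fastp 0.21.0, with the build mm10. No source used here says which tool counted, with what annotation, or how strand and multiply matching reads were treated. Without molecular identifiers a count is a read and not a molecule.

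CPM were taken from library totals. The tests used edgeR 4.0.16 (R 4.3.3) on all genes kept by filterByExpr, with TMM scaling, the quasi-likelihood F test (two-sided), a prior count of 0.125 and the Benjamini-Hochberg threshold of 5%. Single embryos and pools had separate fits; the difference of their knockout effects is an interaction term in a fit of the 10 libraries together. Standard errors come from the change and its F value. DESeq2 1.42.0, other scalings, filters and left-out libraries were alternatives. The fitting step was tested on simulated data. Replicates differed beyond counting noise, with 37.7 to 63.8 as chi-square per gene, so none was counted as a duplicate. Whether pools stem from separate matings is not stated by the labels, and p-values then reflect only how far these libraries vary, possibly for technical reasons.

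Members and gene lists were chosen with earlier results of these data known. Named genes are the 8 members, their neighbours, the 2 smallest p per list and set, the 2 most correlated genes per member, and Jarid2; not all are printed. Gene coordinates are from RefSeq (GRCm38.p6, the assembly of mm10; 8 of 8 matched), exons and snoRNAs from GENCODE M21.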

Additional observations from a re-analysis of the deposited data

How the results depend on the processing

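Of 336 alternative values of the 8 genes (3 comparisons), 315 kept direction and side of the threshold, 8 lost the Malat1 call in single embryos, 1 gained a call (Gas5 without knockout embryo 3) and 12 changed sign. With 1 library left out, single-embryo values ran from -0.93 to -0.59 for Malat1, -0.71 to -0.36 for Gas5, -0.08 to 0.32 for Snhg3, -0.42 to 0.05 for Snhg8 and -0.41 to 0.33 for Snhg12. Pooled values ran from -0.15 to 0.33 for Malat1 and -0.29 to 0.30 for Neat1, and the difference of the sets for Snhg12 from -0.17 to 0.57. The pooled change of Malat1 and of Neat1 turned negative without control pool 1 (-0.03 and -0.10) or knockout pool 2 (-0.15 and -0.29). Leaving out a pool leaves 1 library in a genotype, assumed to vary like the other group.

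Malat1 in single embryos was -0.68 with DESeq2 size factors and -0.66 with upper quartile scaling, past the threshold in neither. Calls in single embryos numbered 605, and 1957 by DESeq2, 1715 without a filter, 1667 with all 10 libraries in one fit, and 1 to 1316 with a library left out. In pools they numbered 0, and 71 by DESeq2, 170 without a filter, and 25 to 379 with a library left out. For the difference of the sets they numbered 1, and 544 by DESeq2, 548 without a filter, and 0 to 2 with a library left out. The causes were not tested.

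Replicate numbers are not stated to pair samples. Deviations of same-numbered libraries correlated at -0.053 and -0.17 in single embryos and at 0.574 in pools, where 2 libraries per genotype mirror each other. With the replicate number as a block, 38 genes passed in single embryos (replicates 1 and 3) and 39 in pools, Malat1 was at -0.67 (adjusted p = 0.358) and Snhg12 at 0.42 in single embryos. Of 12 named genes called there, 11 were not called with the block, which used 4 of the 6 libraries.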

Other observations

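Rows for 10 of the 25 snoRNAs inside the hosts are in the table, where counts can come from the snoRNA, from unspliced host RNA or from both. The most counts were in Snora73b (172 to 515 per library), against 19 to 62 in its near copy Snora73a, the sequence pair that is 96.6% identical and can share reads. Snord47 of Gas5 had 56 to 267 counts and Snord22 of Snhg1 27 to 174. Snord87 had 3 to 44, Snord99 0 to 42, Snora61 0 to 23, Snora44 4 to 18 and Snora16a 1 to 13 counts. Snora24 of Snhg8 had 0 counts in every library.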
